A study of Mus musculus with 8 samples.

Results

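The adrenergic receptors and the renin-angiotensin genes encode the cell surface and hormone parts of 2 systems that set heart rate, contraction and blood pressure. Of the 8 genes chosen by name (Adrb1, Adra1a, Adra1b, Agt, Agtr1a, Agtr2, Ace and Mas1), 6 had a probe set annotated with that gene symbol alone, out of 22180 genes on the arrays. Each of the 6 had a single such probe set. Adrb1 and Adra1a were not analysed here. Of the 6, Agt, Ace, Agtr1a and Adra1b passed the filter on low values, a group mean of at least 5.19 (the median of all values), and Agtr2 and Mas1 did not.

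Left ventricles of female C57BL/6 mice aged 3 to 4 months were profiled on 8 arrays. The groups were non-pregnant mice in diestrus (replicates 2 and 3), mice at day 12 of pregnancy (replicates 2 and 3), mice at day 19 of pregnancy (replicates 1 and 2, a group that the protocol gives as 18/19 days) and mice at day 1.5 after birth (replicates 2 and 4). No transgene or treatment was named for any group, diestrus was the stated reference, and the tissue was 1 of 3 pieces of the ventricle. Values are log2 intensities, so a difference of 1 is a doubling, and a level of one gene cannot be set against that of another.

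In the renin-angiotensin system, the enzyme renin cuts angiotensinogen, the product of Agt, and angiotensin-converting enzyme, the product of Ace, trims the resulting peptide to angiotensin II. The main receptor for angiotensin II in mice, encoded by Agtr1a, couples to the G protein Gq, constricts vessels and promotes growth, while the receptors encoded by Agtr2 and Mas1 are known for opposing effects. Catecholamines act on the ventricle through beta receptors, which raise cyclic AMP, and through alpha receptors such as that of Adra1b, which couple to Gq. In pregnancy the circulating renin-angiotensin system is known to be raised while vessels respond less to angiotensin II.

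Day 19 replicate 2 correlated with the others at 0.969 to 0.977 over all probe sets, against 0.980 to 0.992 among the other 7 arrays, and its 10 macrophage markers averaged 1.34 above the diestrus mean, its 11 fibroblast markers -0.61 and its 10 mural markers -0.44. Atrial markers were uneven within groups. Of the 8, all measured, 5 were higher on diestrus replicate 3 than on replicate 2, 6 on day 12 replicate 3 than on replicate 2, and 8 on day 19 replicate 1 than on replicate 2. Nppa, the atrial natriuretic peptide gene, ran the other way in the first 2 pairs, at 11.92 and 11.03 in diestrus and 11.23 and 11.13 at day 12. Myl7, the atrial myosin light chain, stood at 8.24 on diestrus replicate 3, 10.04 on day 12 replicate 3 and 11.76 on day 19 replicate 1, and between 4.56 and 5.12 on the other 5 arrays. The 8 mesothelium markers averaged 1.08 above the diestrus mean on day 19 replicate 1 and 0.01 on replicate 2. The ventricular light chain gene Myl3 was between 11.93 and 12.24 on all 8 arrays and the ventricular factor gene Irx4 between 8.06 and 8.88. All 9 ventricular markers had lower means at day 19 than in diestrus, 6 without overlap (20.4% of all genes). Post-partum, 8 of the 9 were higher than at day 19 without overlap (19.0%). In whole tissue, fewer cells of a type and less RNA per cell cannot be told apart. Nothing in the labels ties an array to a named animal, so the spread behind each p-value is that between arrays and may be technical.

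In limma, fitted over 13872 genes with 1 mean per state, 0 genes passed an adjusted p of 0.05 in any of the 6 comparisons between states, which makes the called share 0%. At an unadjusted p under 0.05 the counts were 321 to 1145 genes. Without day 19 replicate 1, day 19 is a single array, the replicate 2 that stood apart, and its spread is taken from the other groups. In that fit, whose counts cannot tell the state from the array, 1311 genes passed the adjusted threshold at day 19 against diestrus, 1374 at day 19 against day 12, 929 post-partum against day 19 and 702 in the F test, and the 4 genes tested here were not among them. The differences below are given as sizes with their errors, since none passed that threshold.

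Agt was lower in diestrus than in every other state. It stood at 6.37 and 5.80 in diestrus, 6.96 and 6.68 at day 12, 6.60 and 7.03 at day 19, and 6.45 and 6.49 post-partum. Both diestrus arrays lay below all 6 others, an arrangement found for 3.61% of the genes tested. The difference from diestrus was 0.74 ± 0.23 log2 (SE) at day 12, or 1.67-fold, with a 95% interval of 0.21 to 1.27 (limma, adjusted p = 1.00, unadjusted p = 0.0128). At day 19 it was 0.73 ± 0.23, or 1.66-fold, with an interval of 0.20 to 1.26 (limma, adjusted p = 0.657, unadjusted p = 0.0133). Post-partum it was 0.39 ± 0.23, and the interval of -0.15 to 0.92 held 0.

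The Agt means were 6.08 ± 0.40 (SD, n = 2) in diestrus, 6.47 ± 0.02 post-partum, 6.82 ± 0.31 at day 19 and 6.82 ± 0.20 at day 12, in that order. The means of the 2 pregnant groups differed by -0.01, with an interval of -0.54 to 0.53, and the post-partum mean lay 0.35 below that of day 19 (interval of the difference -0.88 to 0.19), with both its arrays below both day 19 arrays. Without day 19 replicate 2 that difference was -0.13. The spread within diestrus, an SD of 0.40, was the widest of the 4 groups. Without diestrus replicate 3, the array at 5.80, the differences from the other diestrus array were 0.45 at day 12, 0.45 at day 19 and 0.10 post-partum. In each group that held a pair of arrays with unlike atrial markers, Agt was lower on the array where Myl7 was high, and the part of atrial tissue in its values was not tested. Over the 5 arrays of low atrial markers, a choice made after seeing the data, Agt exceeded its diestrus level by 0.60 at day 12, by 0.66 at day 19 and by 0.10 after birth, with only 1 array in each of the first 3 groups.

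The stretch of DNA before the Agt start is shown because Agt had the largest differences of the 6 genes. It covers the 250 bases before the start on the minus strand, chr8:124569707-124569956 in RefSeq's GRCm38.p6, and capitals mark the TATA box TATAAA, at positions -30 to -25 from the start, and the palindrome TTCNNNGAA, the form bound by STAT factors, at -172 to -164.
Agt: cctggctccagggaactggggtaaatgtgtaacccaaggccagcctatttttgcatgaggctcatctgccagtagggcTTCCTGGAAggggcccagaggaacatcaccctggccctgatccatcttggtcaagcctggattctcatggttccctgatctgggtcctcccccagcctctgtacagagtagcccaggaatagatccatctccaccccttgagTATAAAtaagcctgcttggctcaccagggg
Over both strands, TATAAA occurred in 12.4% of 32851 windows of the same length before RefSeq starts, and TTCNNNGAA in 7.02%. A match describes the letters only; no binding was measured.

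Ace varied over a narrower range, and its highest mean was post-partum. It stood at 8.92 and 8.95 in diestrus, 8.74 and 8.72 at day 12, 8.80 and 8.65 at day 19, and 8.95 and 9.23 post-partum. Both pregnant groups lay below diestrus without overlap, and both post-partum arrays lay above the 6 others, replicate 2 by less than the rounding shown, an arrangement found for 6.45% of genes. The post-partum mean exceeded that of day 19 by 0.37 ± 0.14 log2 or 1.29-fold (limma, adjusted p = 0.589, unadjusted p = 0.0346) and that of day 12 by 0.36 ± 0.14 or 1.28-fold (limma, adjusted p = 0.615, unadjusted p = 0.0364). Against diestrus the differences were -0.20 (interval -0.53 to 0.13) at day 12, -0.21 (-0.54 to 0.13) at day 19 and 0.16 (-0.17 to 0.49) post-partum.

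In order, the Ace means were 8.72 ± 0.10 (SD, n = 2) at day 19, 8.73 ± 0.01 at day 12, 8.93 ± 0.02 in diestrus and 9.09 ± 0.20 post-partum, and no neighbouring pair differed beyond its interval. The post-partum excess rested in part on replicate 4: without it, Ace post-partum was 0.23 above day 19, 0.22 above day 12 and 0.02 above diestrus. Endothelial markers, which mark the main cells known to carry the enzyme in the heart, averaged -0.07 and -0.09 post-partum and 0.01 and -0.37 on day 19 replicates 1 and 2, relative to diestrus, over 9 genes. The part of these cells in the Ace values was not tested.

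Of the 2 starts listed for Ace, the upstream one, that of the long form made in endothelium, is shown beside Agt for contrast, with TATAAA (read on the opposite strand) and GGGCGG boxes in capitals, on the plus strand at chr11:105967698-105967947.
Ace: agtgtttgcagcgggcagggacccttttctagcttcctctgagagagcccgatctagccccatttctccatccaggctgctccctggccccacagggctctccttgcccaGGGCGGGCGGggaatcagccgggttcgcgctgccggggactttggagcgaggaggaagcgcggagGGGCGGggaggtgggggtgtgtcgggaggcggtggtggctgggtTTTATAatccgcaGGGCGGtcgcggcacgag
GGGCGG was matched 4 times here, the first pair overlapping, and on either strand in 32.7% of the windows; it was not matched in the 250 bases before the Agt start. G and C made up 67.2% of this stretch against 55.6% of that of Agt. Entries in the RefSeq table matched 5 of the 6 genes measured.

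**Figure D1:**
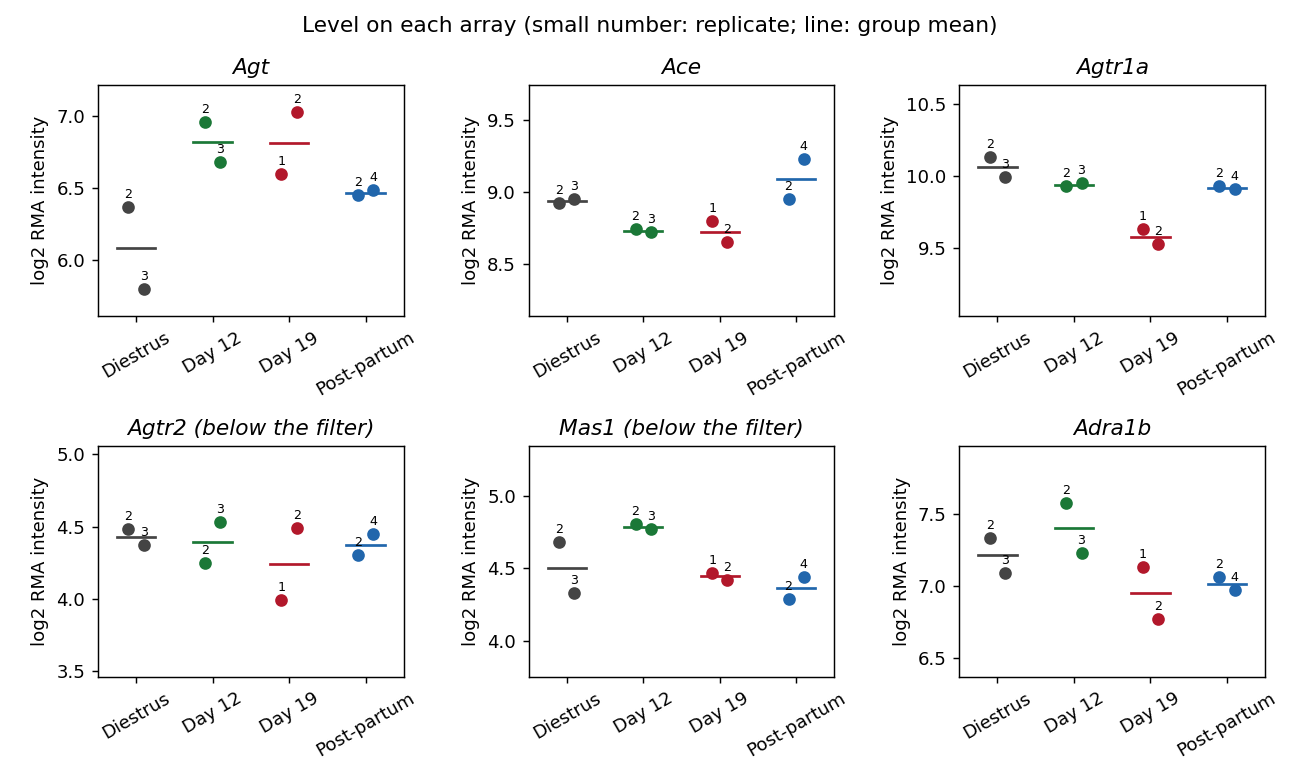
Log2 RMA intensity of the 6 genes on each array, by state; points are arrays with their replicate numbers, lines are group means, and every panel spans the same height on its own level. Agt is lowest on the diestrus arrays (6.37 and 5.80), Agtr1a lowest at day 19 (9.63 and 9.53), and Ace highest post-partum (8.95 and 9.23).

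Among the receptors, Agtr1a was lowest at day 19. It stood at 10.13 and 9.99 in diestrus, 9.93 and 9.95 at day 12, 9.63 and 9.53 at day 19, and 9.93 and 9.91 post-partum. Both day 19 arrays lay below all 6 others, as for 4.95% of the genes tested, and both diestrus arrays lay above all 6 others, as for 3.84%. Day 19 was 0.48 ± 0.13 log2 below diestrus, or 1.40-fold, a difference of -0.48 with an interval of -0.77 to -0.19 (limma, adjusted p = 0.657, unadjusted p = 0.00531).

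Agtr1a at day 19 was also lower than in the states on either side, in comparisons that rest on the same 2 day 19 arrays. The difference from day 12 was -0.36 (interval -0.65 to -0.07; limma, adjusted p = 0.675), and post-partum stood 0.34 above day 19 (0.05 to 0.63; limma, adjusted p = 0.589). Post-partum differed from day 12 by -0.02, and day 12 and post-partum differed from diestrus by -0.12 and -0.14, all with intervals that held 0. In order, the means were 9.58 ± 0.07 (SD, n = 2) at day 19, 9.92 ± 0.01 post-partum, 9.94 ± 0.02 at day 12 and 10.06 ± 0.10 in diestrus, and neighbours among the last 3 did not differ beyond their intervals.

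With each array of the groups compared dropped in turn, the Agtr1a difference of day 19 from diestrus stayed between -0.55 and -0.41. That from day 12 stayed between -0.41 and -0.31. Arrays of the other groups cannot move these differences. On day 19 replicate 2, where mural markers averaged -0.44 and fibroblast markers -0.61, Agtr1a was -0.53 from the diestrus mean. On replicate 1, where these lists averaged -0.15 and -0.01, it was -0.43. The part of these cells in the Agtr1a values was not tested. Agtr1b, the near-identical second copy of the receptor gene in mice, gave values between 4.89 and 5.47 with no order by state. These values lay on both sides of 5.11, the level at or below which 95% of olfactory receptor genes had their mean. That is close to background, so the lack of order does not show steady expression. Cross-hybridisation between the copies was not tested.

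Agtr2 and Mas1 were not clearly above background. Agtr2 stood at 4.48 and 4.37 in diestrus, 4.25 and 4.53 at day 12, 3.99 and 4.49 at day 19, and 4.30 and 4.45 post-partum, and no pair of groups was free of overlap. Mas1 stood at 4.68 and 4.33 in diestrus, 4.81 and 4.77 at day 12, 4.47 and 4.42 at day 19, and 4.29 and 4.44 post-partum. For scale, 95% of the 1088 olfactory receptor genes, which the heart is not known to use broadly, had a mean at or below 5.11. The median of those means was 3.25. Mas1 was highest on both day 12 arrays, and its largest difference was -0.42 from day 12 to post-partum (interval -0.79 to -0.05, fitted without the filter, adjusted p = 0.725 in limma). For Agtr2 the largest was -0.19, day 19 against diestrus (-0.63 to 0.26), and it was 0.06 without day 19 replicate 1. Values this close to background compress differences, so small ones were not detectable for either receptor.

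Adra1b, the adrenergic receptor gene that could be read, was highest at day 12. It stood at 7.33 and 7.09 in diestrus, 7.57 and 7.23 at day 12, 7.13 and 6.77 at day 19, and 7.06 and 6.97 post-partum. Day 19 and day 12 did not overlap, and neither did post-partum and day 12 or post-partum and diestrus, while day 12 and diestrus did overlap. Day 19 was below day 12 by a log2 difference of -0.45 ± 0.18 or 1.36-fold (interval -0.87 to -0.02; limma, adjusted p = 0.675, unadjusted p = 0.0410), and post-partum by -0.38 ± 0.18 (-0.81 to 0.04).

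The Adra1b means ran from 6.95 ± 0.25 (SD, n = 2) at day 19 through 7.01 ± 0.06 post-partum and 7.21 ± 0.17 in diestrus to 7.40 ± 0.24 at day 12, and no neighbouring pair differed beyond its interval. The difference between day 19 and day 12 was -0.63 without day 19 replicate 1 and -0.27 without day 19 replicate 2, which held the lowest Adra1b value. That of day 19 from diestrus, -0.26, was -0.08 without replicate 2. Ventricular cardiomyocyte markers on that replicate averaged -0.24 over 9 genes, against -0.08 on replicate 1, and their part in the Adra1b value was not tested.

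**Figure D2:**
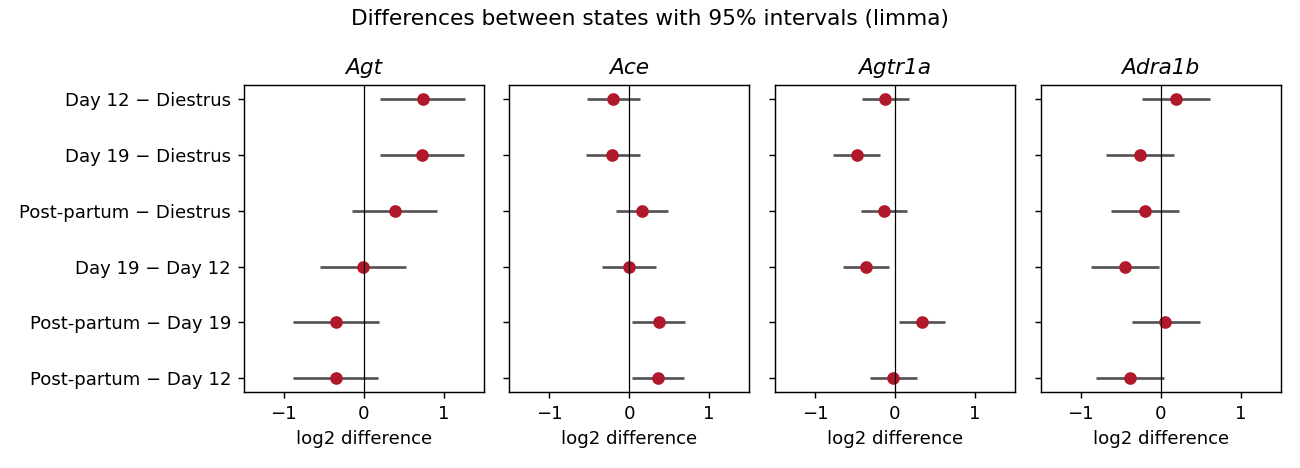
Log2 difference between each pair of states (points) with its 95% interval from limma (bars) for the 4 genes that passed the filter, on one axis from -1.5 to 1.5. The intervals of Agt against diestrus exclude 0 at day 12 and day 19, and those of Agtr1a exclude 0 in all 3 comparisons with day 19, as do 2 of Ace with post-partum and 1 of Adra1b; none passed adjustment over all genes.

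Counted over the 4 genes that passed the filter, the separation of groups can be read against all genes. At day 12, 1 of 4 lay above diestrus without overlap (21.7% of all genes did) and 2 of 4 below (15.6%). At day 19, 1 lay above (16.4%) and 2 below (20.4%), and post-partum 2 lay above (21.1%) and 2 below (21.7%). Between the later states, 2 of 4 lay lower at day 19 than at day 12 (23.2%) and 0 higher (16.3%), 2 higher (19.0%) and 1 lower (14.3%) post-partum than at day 19, and 1 higher (20.5%) and 3 lower (26.0%) post-partum than at day 12. As to a state apart from the 6 other arrays, 0 of the 4 genes had day 12 above (5.64% of all genes) or below (3.01%), day 19 above (3.61%) or post-partum below (4.66%). Over so few genes, counts of this size are no result about these genes as a group.

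An unadjusted p under 0.05 in limma was reached at day 12 by Agt (2.31% of all genes), at day 19 by Agt and Agtr1a (7.29%), and post-partum by 0 of the 4 (6.62%). It was reached by Agtr1a and Adra1b between day 19 and day 12 (6.47%), by Agtr1a and Ace between post-partum and day 19 (8.25%) and by Ace between post-partum and day 12 (8.12%). In the F test over the 4 states Agtr1a (unadjusted p = 0.0260) and Agt (0.0377) were among the 5.81% of genes under 0.05, and 0 genes passed adjustment.

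In 9 lists of other genes of the 2 pathways, 73 genes had a probe set of their own and 64 passed the filter; 0 passed an adjusted p of 0.05 in any comparison. Among the 6 other adrenergic receptor genes, only Adra2c was measured, at 4.09 to 4.90, below the filter. The genes with the smallest p of the F test came from catecholamine synthesis and clearance. Pnmt, whose enzyme turns noradrenaline into adrenaline, stood at 5.57 and 5.54 in diestrus, 6.10 and 5.91 at day 12, 5.14 and 5.28 at day 19, and 5.57 and 5.48 post-partum. Its log2 difference of day 19 from day 12 was -0.79 ± 0.13 (limma, adjusted p = 0.675, unadjusted p = 4.19e-04). No fold is given, since its day 19 mean of 5.21 lay near the 5.11 that bounds 95% of olfactory receptor genes. The day 12 arrays lay above all others, as for 5.64% of the genes tested, and the day 19 arrays below all others, as for 4.95%.

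Maob, one of the monoamine oxidases that break down amines, was lowest post-partum. It stood at 9.82 and 9.85 in diestrus, 9.95 and 10.03 at day 12, 9.89 and 9.79 at day 19, and 8.95 and 9.42 post-partum, with a difference of -0.80 ± 0.17 from day 12 and -0.65 ± 0.17 from diestrus (limma, adjusted p = 0.530 and 0.722). Without post-partum replicate 2 the latter was -0.41. Maoa, its partner enzyme, was -0.31 from diestrus at day 19 and 0.00 without day 19 replicate 2. Th, the rate-limiting enzyme of catecholamine synthesis, lay between 4.95 and 5.34 on all arrays. That is close to background, with a diestrus mean of 5.03 under the olfactory bound of 5.11, so the narrow range does not show steady expression.

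In the cyclic AMP pathway downstream of beta receptors, 7 of the 22 genes tested were higher and 15 lower at day 19 than in diestrus. Of all genes, 55.5% were lower. The median of the list was -0.05 against -0.03 for all genes. Without day 19 replicate 2, 12 were higher and 10 lower, with a median of 0.04. Akap5, an anchor that holds protein kinase A near the receptor, was at 6.82 and 6.78 in diestrus, 6.69 and 6.24 at day 12, 6.41 and 6.08 at day 19, and 6.90 and 6.84 post-partum. It was -0.56 ± 0.19 at day 19 relative to diestrus and 0.62 ± 0.19 higher post-partum than at day 19 (limma, adjusted p = 0.657 and 0.589). Prkaca, the catalytic subunit of that kinase, gave -0.01 at day 12, -0.33 at day 19 and -0.05 post-partum. Its other probe set gave -0.47, -0.58 and 0.33, so the probe sets were alike in sign but not in size before birth and opposite after it. Pde4a, which degrades cyclic AMP, gave -0.20 at day 19 (-0.12 without diestrus replicate 2) and 0.22 post-partum. Rapgef3, a cyclic AMP sensor, exceeded its diestrus mean by 0.30, 0.25 and 0.27 in the 3 later states. Its other probe set, near background at a diestrus mean of 5.24, did so by 0.14, 0.20 and 0.16.

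In the Gq pathway, shared by Adra1b and Agtr1a, 12 of 13 genes tested were lower at day 19 than in diestrus, where 55.5% of all genes were, with a median of -0.18 against -0.03. Relative to diestrus the list averaged -0.03 on day 19 replicate 1 and -0.20 on replicate 2, the array that stood apart. Without that array, 9 were lower and 4 higher, with a median of -0.03. Rgs5, a brake on Gq signals and itself a mural marker, gave -0.39 (other probe set -0.74) and -0.19 without it. Prkce gave -0.22, and Plcb4 gave -0.21 and 0.01 without it. Prkcd, a kinase also abundant in macrophages, went the other way at 0.82 ± 0.29, with 7.25 on replicate 1 and 8.18 on replicate 2, where macrophage markers were 1.34 above diestrus. The part of macrophages in it was not tested.

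Among the kinases and arrestins that switch receptors off, 4 of the 5 genes tested were higher and 1 lower at day 19 than in diestrus, where 44.5% of all genes were higher, with a median of 0.14 against -0.03. The list averaged 0.10 above diestrus on replicate 1 and 0.29 on replicate 2, the array with the high macrophage markers, whose part was not tested. Without replicate 2, 5 were higher and 0 lower, with a median of 0.11. Arrb2, an arrestin, stood at 7.58 and 7.50 in diestrus, and at 7.61 on day 19 replicate 1 and 8.63 on replicate 2. The receptor kinases gave 0.24 (Grk3), 0.14 (Grk6) and -0.05 (Grk5), and 0.14, 0.05 and 0.14 without day 19 replicate 2.

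Of the peptidases that shape angiotensin peptides, 9 of 15 listed passed the filter. At day 19, 6 were higher and 3 lower than in diestrus, where 44.5% of all genes were higher, with a median of 0.04 against -0.03. Mme, neprilysin, which degrades angiotensin and natriuretic peptides, gave -0.73 ± 0.32 at day 19, with 7.67 on replicate 1 and 6.65 on replicate 2 against 7.81 and 7.96 in diestrus. Anpep, an aminopeptidase, was 0.55 ± 0.21 higher at day 19 than at day 12. Post-partum, Prcp gave -0.29 and Prep 0.28, and without post-partum replicate 2 they gave -0.02 and 0.16. Atp6ap2, the (pro)renin receptor, was 8.49 and 8.42 in diestrus and 8.68 and 9.00 at day 19, a difference of 0.39 ± 0.17, and Agtrap, a protein that draws the angiotensin receptor into cells, gave 0.25. Without day 19 replicate 2 these were 0.23 and 0.03. Mtus1, which encodes a partner of the Agtr2 product, gave 0.03, or -0.15 without day 19 replicate 1. Its other probe set gave -0.03, at a diestrus mean of 4.97, under the 5.11 that bounds 95% of olfactory receptor genes.

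Bdkrb2, a receptor for bradykinin, a peptide that angiotensin-converting enzyme degrades, had its lowest mean in diestrus, at a level not above background. It stood at 4.76 and 5.01 in diestrus, 5.01 and 5.25 at day 12, 5.36 and 5.65 at day 19, and 5.23 and 5.18 post-partum. It passed the filter through the groups where it was high, and its diestrus mean of 4.88 lay under the 5.11 that bounds 95% of olfactory receptor genes, so no fold is given. The log2 difference at day 19 was 0.62 ± 0.16 (limma, adjusted p = 0.657). In the mineralocorticoid pathway Nr3c2, the aldosterone receptor, gave -0.39 at day 19 and -0.25 without replicate 2. Its other probe set gave 0.12, but at a diestrus mean of 3.69, under that same bound, and cannot serve as a second reading. Hsd11b2, which shields the aldosterone receptor from glucocorticoids, gave 0.41 post-partum and 0.21 without diestrus replicate 2. Its diestrus arrays stood at 5.04 and 5.43, near background by that bound of 5.11. Hsd11b1, which regenerates glucocorticoid, gave 0.39 at day 19 and -0.09 without replicate 2, and Sgk1, a target of the receptor, gave 0.13.

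**Figure D3:**
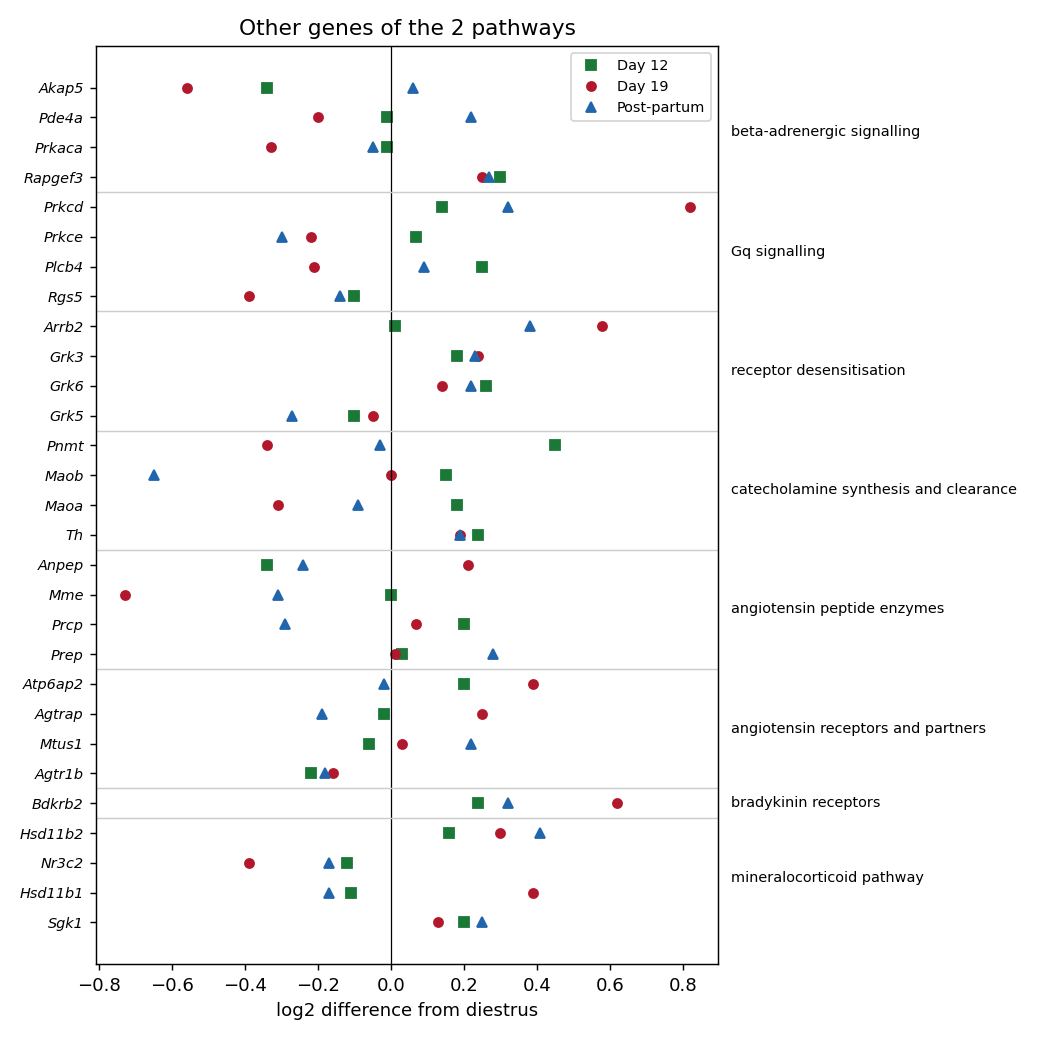
Log2 difference from diestrus at day 12 (squares), day 19 (circles) and post-partum (triangles) for up to 4 genes of each list with the smallest F test p. Pnmt is at 0.45 at day 12 and -0.34 at day 19, Maob at -0.65 post-partum, and Prkcd at 0.82 at day 19; none passed adjustment over all genes.

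The genes whose values followed each member most closely were found by Pearson's r over the 8 arrays among the 13872 genes. For Agt these were Kcnj10 (r = 0.942) and Ms4a4a (0.928), for Ace Itgb3bp (0.969) and Tmem97 (0.965), for Agtr1a Zfp958 (0.973) and Gper1 (0.957), and for Adra1b Zbtb18 (0.979) and Enox2 (0.975). By rank, Spearman's rho was lower for Gper1 (0.67), Kcnj10 (0.81) and Tmem97 (0.83), and at least 0.95 for the others. The values describe likeness over 8 arrays that share their processing and their states, with the closest genes picked from all those tested. Between the 4 genes themselves, r ranged from -0.57 (Agt and Ace) to 0.58 (Adra1b and Agtr1a). Without day 19 replicate 2 the range was from -0.69 (Adra1b and Ace, -0.17 with it) to 0.56 (Adra1b and Agt, 0.05 with it), and the first 2 pairs gave -0.43 and 0.25.

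**Figure D4:**
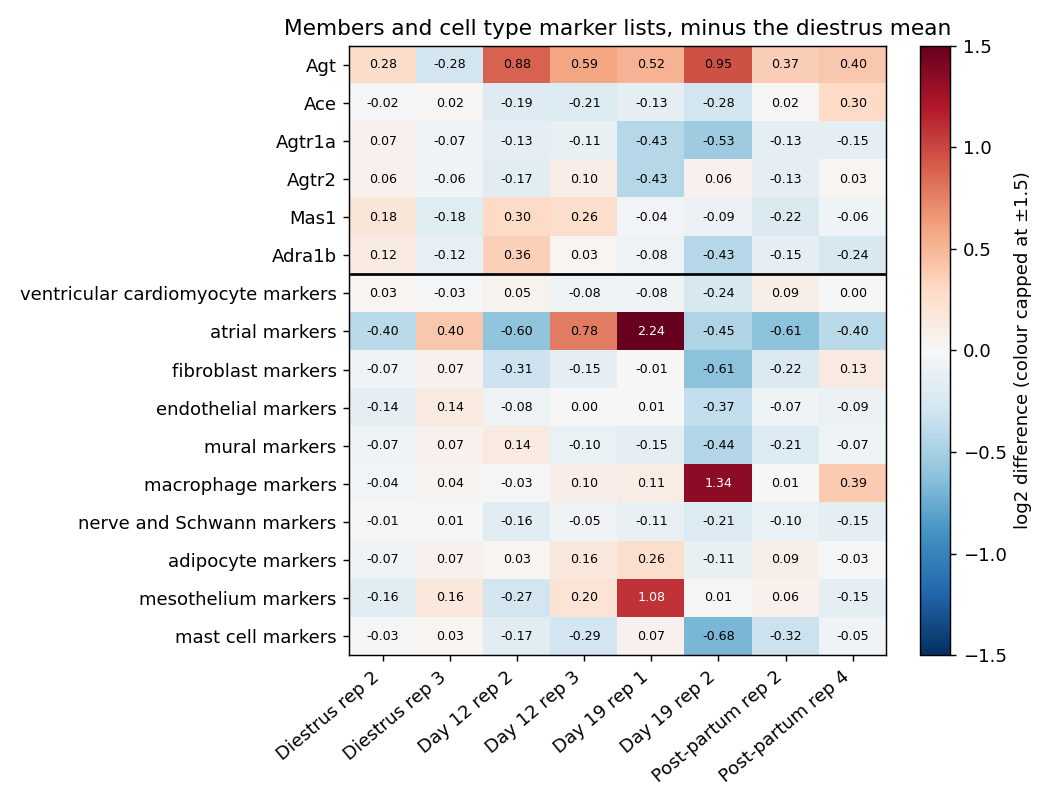
Log2 difference from the diestrus mean on each array for the 6 genes (above the line) and for the mean of each cell type marker list (below it); colour is capped at 1.5 in either direction. Atrial markers reach 2.24 on day 19 replicate 1 and macrophage markers 1.34 on replicate 2, while Agtr1a is at -0.43 and -0.53 on these arrays and Agt at 0.52 and 0.95.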

How the data were processed

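Log2 intensities per probe set were deposited; per the submitters' processing notes, the authors used RMA and Affymetrix Expression Console, with versions, settings and genome build not given in the sources used here. RMA equalises the arrays, so a shift shared by most genes is removed. Per the labels' protocols, 100 ng of total RNA was labelled per array. Of 34365 probe sets, 23521 had 1 gene symbol in the platform annotation, 1814 several and 9030 none. The probe set with the highest mean was kept per gene, and a gene was tested if a group mean reached 5.19. limma 3.58.1 in R 4.3.3 fitted all 8 arrays with 1 mean per group (4 residual and 3.68 prior degrees of freedom; typical standard error 0.17). Tests were two-sided, with Benjamini-Hochberg adjustment over 13872 genes and a threshold of 0.05, and the fit was first tested on simulated data. The number of arrays limits the precision. Members and lists were chosen with earlier results of these data known. From the other lists of the 2 pathways the text names up to 4 genes with the smallest F test p. For each member tested, the 2 genes of highest r over the 8 arrays are named, without predicted and small RNA genes. Alternatives covered the filter, centring, array weights, the variance model, fewer arrays and a replicate block. For genes of the other lists, arrays were left out 1 at a time after seeing the data, as differences of means with no test. Sequences are RefSeq's, GRCm38.p6; motifs were searched on both strands.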

Additional observations from a re-analysis of the deposited data

How the results depend on the processing

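Over the alternatives run, 382 of 388 values of the 4 tested members kept their sign and stayed short of the threshold. In most of these settings the sign could not change. The filter, the variance model, the array weights (equal within each pair), the replicate block and arrays left out of other groups leave a difference of means as it was. Without day 19 replicate 1, Agt at day 19 was 0.95 above diestrus. That fit leaves day 19 as 1 array, the replicate 2 that stood apart, assumed to vary like the other groups. Values that changed sign were small: Agt, day 19 against day 12, gave 0.14 without day 12 replicate 2, 0.21 without day 19 replicate 1 and 0.07 over the 5 arrays of low atrial markers. Ace in that comparison gave 0.00 without day 12 replicate 2 and 0.07 without day 19 replicate 2. Adra1b, post-partum against day 19, gave -0.11 without day 19 replicate 2. With 1 array left out these 3 differences ranged from -0.22 to 0.21, from -0.08 to 0.07 and from -0.11 to 0.24.

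The counts of genes past the threshold, 0 with all arrays, ranged with 1 array left out from 0 to 2 at day 12, 0 to 1311 at day 19 and 0 to 3 post-partum against diestrus. They ranged from 0 to 1374 for day 19 against day 12, 0 to 929 for post-partum against day 19, 0 to 3 for post-partum against day 12 and 0 to 702 for the F test. The counts of 702 and over came without day 19 replicate 1. The cause was not tested. Over the 5 arrays of low atrial markers, chosen after seeing the data and with lone arrays assumed to vary like the post-partum pair, the counts were 322 at day 19 against diestrus, 283 for day 19 against day 12, 352 for post-partum against day 19 and 185 for the F test. Array weights gave 1 gene at day 12 against diestrus, and a trended and robust variance 1 for post-partum against day 19. With the replicate block on the 4 arrays of day 12 and diestrus, the count was 29 and Agt gave an adjusted p of 0.0898. Numbers 2 and 3 are shared by these groups, and same-numbered deviations correlated at 0.22 over genes, but nothing in the labels pairs the samples.

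The groups of the other comparisons share at most 1 replicate number, and no block was fitted for them.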
